A study of Homo sapiens with 42 samples.

Results

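The comparison of 6 h with 0 h of PMA treatment described here covered 24132 of 33914 chromatin loops, those with enough contacts for a test, in K562 cells. K562 is an established human leukemia cell line of erythroid and megakaryocytic potential, labelled as wild type. PMA, a phorbol ester, was given at 25 nM to drive the cells toward a megakaryocyte-like state, and the 0 h group is the time before treatment. Contacts were measured by in situ Hi-C in 4 biological replicates per time, for which the authors deposited a table with the raw contact count of every loop. All groups come from the same line, and the labels do not say whether the replicates were separate cultures, so p-values measure the spread between these libraries. A loop here is a pair of 10 kb anchors of 1 chromosome. Its count covers all read pairs that join them, with the local background included.

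Loops of this kind arise largely where the ring-shaped cohesin complex extrudes chromatin until it meets bound CTCF, and other loops join promoters with distal enhancers. PMA mimics diacylglycerol and activates protein kinase C, which signals through the MAP kinases to immediate early transcription factors such as AP-1 and through NF-kB. In K562 cells prolonged PMA treatment is known to stop division, to raise platelet integrins and to lower erythroid genes. The comparison at 6 h asks which loci show changed loops early in this response.

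Depth was 849895 to 1472197 contacts per library at 0 h and 736929 to 1090199 at 6 h, and the tested loops had a median of 28 contacts per library. Replicates 3 and 4 at 0 h were not told apart beyond sampling noise (1.014 for chi-square over degrees of freedom, p 0.0591), and those at 6 h by little more (1.016, p 0.0327), while every other pair within these times gave 1.076 or more. Replicates 3 and 4 are therefore counted as 1 sample in each mean ± SD below (n = 3), and the fit was repeated with them summed. Loops put aside were long and thin, with a median length of 1260 kb against 290 kb in tested loops. No gene expression was measured in these libraries, so the identity of the cells could not be checked against marker genes.

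The sequences that follow are the 250 bases before gene starts in anchors of loops described below, on the strand of the gene, from RefSeq (GRCh38.p14). EPOR and GYPE are shown because they carry the erythroid loops that were lost, CITED2 because its anchor lost the most loops, and CHI3L2 because it is a gene start in a strongly gained loop. Capitals mark the letters AGATAA or their reverse complement TTATCT, the core bound by GATA factors, which stood 78 bases before the EPOR start and 45 bases before the GYPE start.
EPOR, chr19:11384315-11384564, minus strand: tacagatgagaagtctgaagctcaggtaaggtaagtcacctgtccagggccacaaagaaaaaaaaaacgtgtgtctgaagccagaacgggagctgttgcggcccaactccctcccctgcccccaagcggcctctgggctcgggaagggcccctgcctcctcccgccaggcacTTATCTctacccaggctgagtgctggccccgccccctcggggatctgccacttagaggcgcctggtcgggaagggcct
GYPE, chr4:143905560-143905809, minus strand: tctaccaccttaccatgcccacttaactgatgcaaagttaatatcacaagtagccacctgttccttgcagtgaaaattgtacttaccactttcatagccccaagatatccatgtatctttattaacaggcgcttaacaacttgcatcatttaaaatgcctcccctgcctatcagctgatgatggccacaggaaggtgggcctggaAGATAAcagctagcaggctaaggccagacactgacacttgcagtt
CITED2, chr6:139374649-139374898, minus strand: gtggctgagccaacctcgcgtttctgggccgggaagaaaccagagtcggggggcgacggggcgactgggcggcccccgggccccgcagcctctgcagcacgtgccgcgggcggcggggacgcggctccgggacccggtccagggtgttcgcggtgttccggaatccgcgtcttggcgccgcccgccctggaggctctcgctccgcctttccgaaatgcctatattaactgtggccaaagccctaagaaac
CHI3L2, chr1:111227409-111227658, plus strand: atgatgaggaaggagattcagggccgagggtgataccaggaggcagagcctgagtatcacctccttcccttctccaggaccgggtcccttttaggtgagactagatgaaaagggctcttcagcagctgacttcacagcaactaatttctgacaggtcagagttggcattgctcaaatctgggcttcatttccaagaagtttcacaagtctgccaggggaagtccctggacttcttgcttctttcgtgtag
The CITED2 and CHI3L2 stretches held neither these letters nor the AP-1 letters TGAGTCA or TGACTCA nor the ETS letters ACCGGAA on either strand. Over the 300 bases around each listed start, AGATAA was present in 7.88% of all 22132 promoters. Among promoters in anchors it was present in 7.29% for tested loops, 5.98% for gained loops (7 of 117) and 7.34% for lost loops (40 of 545). The AP-1 letters were present in 4.01% of all promoters, in 3.31% at tested loops, in 2.56% at gained loops (3 of 117) and in 4.22% at lost loops (23 of 545). ETS letters were present in 4.62% of all promoters, 5.04% at tested loops, 4.27% at gained loops and 4.4% at lost loops. E-box letters, CANNTG, were present in 65.1%, 63%, 56.4% and 62.4% in the same order. These shares are descriptions of letters in a window and carry no test.

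At 6 h, 1546 of the 24132 tested loops (6.41%) had changed (edgeR quasi-likelihood test, Benjamini-Hochberg adjusted p under 0.05). Gained loops, those with more contacts at 6 h, numbered 565 (2.34%), and lost loops 981 (4.07%). Among called loops gains were the larger changes, with a median log2 fold change of 0.75 and a range of 0.27 to 1.95. Losses had a median of -0.49 and a range of -0.27 to -1.34. Gained loops were thinner, at a median of 26 contacts per library against 76.8 in lost loops. Because a thin loop needs a larger fold change to pass, these sizes do not compare gains and losses on equal terms. Of the changed loops, 740 reached a fold change of at least 1.5 (3.07% of tested loops), 441 gained and 299 lost. The 4 libraries of 6 h lay entirely above or below those of 0 h in 407 gained and 727 lost loops. Among all tested loops such a separation was seen in 10.7%, with the 6 h libraries above in 4.97% and below in 5.77%. Fewer loops passed without 0 h replicate 1 (709 loops, 208 gained and 501 lost) and without 6 h replicate 2 (868 loops, 318 gained and 550 lost), and 376 were gained without 6 h replicate 1. DESeq2 called 438 loops, 87 gained and 351 lost, all of them among the 1546, and 340 without its independent filtering, which sets thin loops aside without an adjusted p. The balance of directions moved with the scaling: gains made up 36.5% of changed loops, 51.3% when libraries were scaled to their total contacts (which shifts all loops by 0.04 on the log2 scale), and 44.8% with a correction for loop length. With replicates 3 and 4 summed at both times, 1293 loops changed, 1276 of them among the 1546. Within replicates 1 and 2 alone 526 loops changed, and within replicates 3 and 4 alone 213.

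**Figure D1:**
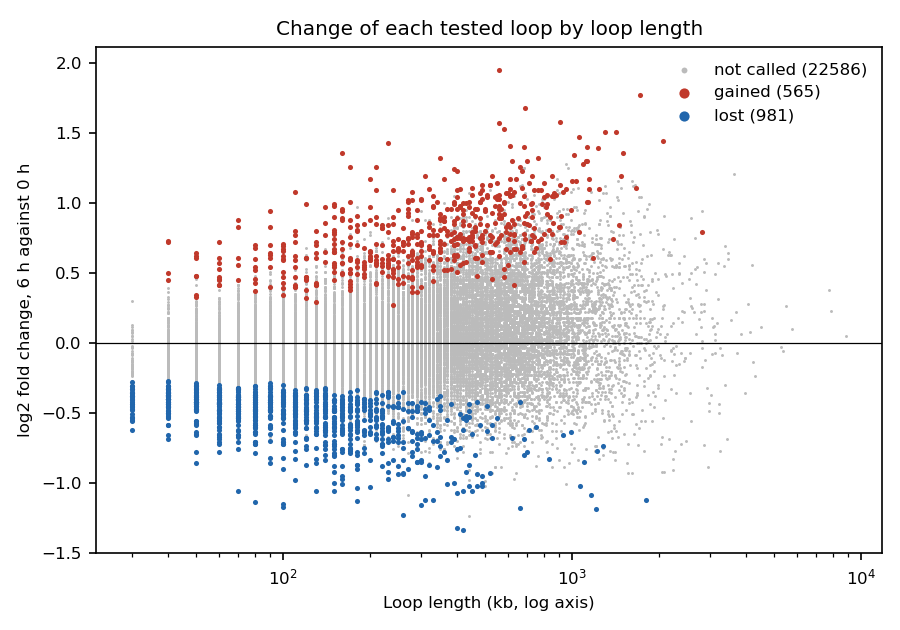
Each point is 1 of the 24132 tested loops, with its length in kb on a log axis and its log2 fold change of 6 h against 0 h. The 565 gained loops (red) lie mostly at longer lengths (median 330 kb) than the 981 lost loops (blue, median 110 kb).

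Losses lay mostly among short loops, while gains were spread over the lengths, given here as a description. From the shortest class to the longest, 1.6, 2.19, 2.4, 2.81, 2.39 and 1.37% of tested loops were gained. The shares lost were 14, 6.58, 2, 0.607, 0.458 and 0.341%. Of the 3310 tested loops of up to 100 kb, 463 were lost and 53 gained, and their median log2 fold change was -0.12. Of the 4891 loops of 100 to 200 kb, 322 were lost and 107 gained. In the class of 200 to 400 kb (7411 loops) the numbers were nearly level, with 148 lost and 178 gained. From there gains outnumbered losses, as losses became few: 176 gained and 38 lost of 6263 loops of 400 to 800 kb. In the class of 800 to 1600 kb, 47 were gained and 9 lost of 1964 loops. The median log2 fold changes of these 2 classes were 0.11 and 0.15. Loops longer than 1600 kb gave 4 gains and 1 loss among 293. Length and count moved together, since short loops held a median of 80.6 contacts per library and loops of 800 to 1600 kb only 11.1. Among the 4827 loops of highest count, 407 of 2340 loops of up to 100 kb and 7 of 115 loops of 400 to 800 kb were lost. With the length correction, which sets the trend over all loops to about 0 by its construction, 145 loops of up to 100 kb were lost and 117 gained, and 69 loops of 400 to 800 kb were lost and 67 gained.

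**Figure D2:**
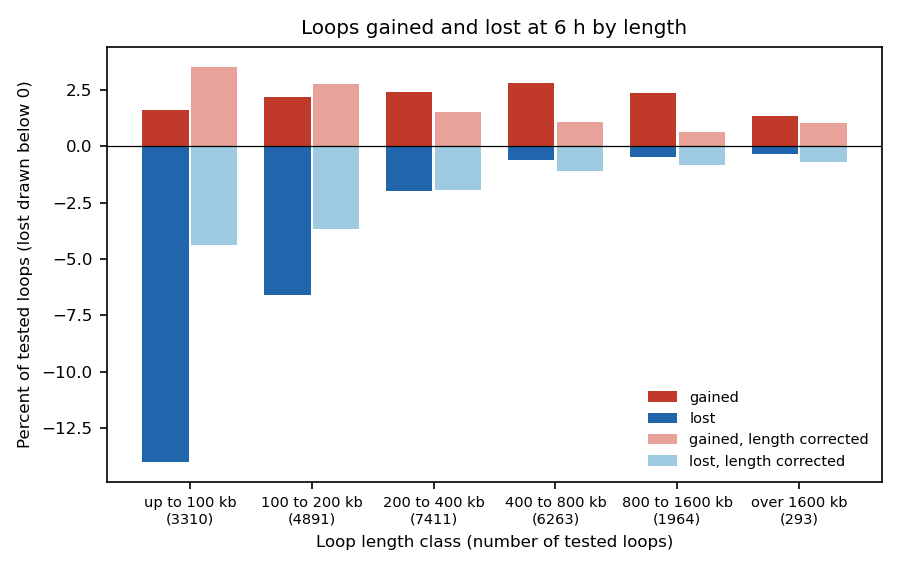
Bars give the percent of tested loops that were gained (above 0) or lost (drawn below 0) in each length class, before (dark) and after (pale) the length correction, with the number of tested loops under each class. In loops of up to 100 kb 14% were lost, and in loops of 400 to 800 kb 0.607%.

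Without any calls on single loops, the share of contacts was lower in short loops and higher in long ones at 6 h. Loops of up to 100 kb held 32, 30.7, 32.2 and 31.6% of contacts in the 0 h libraries and 29.8, 28.7, 29.9 and 30.3% in the 6 h libraries. Every 6 h library lay below every 0 h library, and the means were 31.5% ± 0.701 and 29.5% ± 0.756 (SD, n = 3). Loops of 400 to 800 kb held 12 to 12.7% at 0 h and 13.2 to 14.1% at 6 h, and those of 800 to 1600 kb held 2.39 to 2.56% and 2.7 to 2.95%, again without overlap. Each of these 3 differences had an exact two-sided permutation p of 0.0286, the smallest that 4 against 4 libraries allow, and an adjusted p of 0.0914 over the 32 shares tested. No adjusted p of the 32 shares was under 0.05, and with 3 samples against 3 the smallest possible p is 0.1, which these 3 shares reached.

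Gene starts were more frequent in anchors of lost loops. A listed start of a protein-coding gene lay in both anchors of 8.36% of lost loops, 2.3% of gained loops and 3.67% of tested loops. Of the 885 tested loops that join gene starts at both ends, 82 were lost and 13 gained, and their median log2 fold change was -0.09. Of 17585 loops with no gene start in either anchor, 545 were lost and 436 gained. Length moved with this: loops between gene starts had a median length of 180 kb against 320 kb for loops without one. Within loops of up to 100 kb, 16.6% with gene starts at both ends, 17.3% with 1 and 11.7% with none were lost. Within loops of 100 to 200 kb the corresponding shares were 11.4%, 7.73% and 5.82%. These classes differed in count as well, with medians of 94 and 74.4 contacts per library for both ends and none among the shortest loops. With the length correction 33 loops between gene starts were lost and 11 gained. Loops with gene starts at both ends held 5.65% ± 0.188 of contacts at 0 h and 5.32% ± 0.208 at 6 h (SD, n = 3), and this share did not pass the test (exact permutation p 0.114 over 4 against 4 libraries). The calls touched 710 genes with a listed start, or either end where no start is listed, in a called anchor: 145 in gained loops only, 555 in lost loops only and 10 in both.

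Direction varied between chromosomes. Chromosome 19, dense in genes, had the highest share of changed loops, 9.58% of 647, with 52 lost and 10 gained. Chromosome 17 had 46 lost and 13 gained. Chromosome 5 went the other way with 51 gained and 29 lost, and chromosome 2 with 42 gained and 32 lost. Chromosome 2 held 5.16 to 5.29% of contacts at 0 h and 5.39 to 5.44% at 6 h, and chromosome 5 held 4.84 to 4.95% and 4.99 to 5.11%. Neither pair of ranges overlapped, at the same smallest exact permutation p of 0.0286 (adjusted 0.0914). Chromosome 19 held 4.28 to 4.7% at 0 h and 4.18 to 4.57% at 6 h, and chromosome 17 held 4.66 to 4.83% and 4.59 to 4.73%. On both of these chromosomes the times overlapped (exact permutation p 0.229 and 0.0857). Length moved with the balance of gains and losses. The median length of tested loops was 180 kb on chromosome 19, 210 kb on chromosome 17, 300 kb on chromosome 2 and 340 kb on chromosome 5. With the length correction chromosome 19 had 23 lost and 12 gained, chromosome 17 had 15 and 12, chromosome 5 had 11 and 32, and chromosome 2 had 21 and 28. The X chromosome had the lowest share of changed loops, 4.07% of 811. Count differed as well, with a median of 56.5 contacts per library in tested loops of chromosome 19 and 18.4 on the X chromosome. The part of count in the shares called was not tested.

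The strongest gain by p-value lay near PHLDA1, which encodes a pleckstrin homology-like protein induced by growth signals. The loop (loop24024 of the deposited table) joined chr12:75780001-75790000 with chr12:75940001-75950000, and its nearer anchor was 82 kb from the PHLDA1 start. Its normalized counts, in contacts per 1000000 contacts in tested loops, were 21, 21.8, 20.1 and 21.6 at 0 h and 61.8, 49.5, 55.2 and 51.9 at 6 h. All 6 h libraries lay far above every 0 h library, and the log2 fold change was 1.36 ± 0.18 SE (adjusted p 9.8e-09 by edgeR). No protein-coding gene start lay within or at the ends of this loop.

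A second gained loop between anchors without a gene start (loop23647) lay on chromosome 12 between SLC38A2 and SLC38A4, which encode amino acid transporters. It gave 31.1, 22.8, 30.1 and 40.9 at 0 h and 74.5, 55.1, 70.8 and 62.7 at 6 h (log2 fold change 1.08 ± 0.16 SE, adjusted p 6.3e-07 by edgeR). On chromosome 20 a 70 kb loop (loop31907) with an anchor 21 kb from the start of STX16, a syntaxin of the trans-Golgi network, gave 55, 46.5, 61.5 and 53.4 at 0 h and 107, 85, 108 and 100 at 6 h. The times did not overlap in either loop, and the loop near STX16 rose by 0.88 ± 0.13 SE on the log2 scale (adjusted p 6.3e-07 by edgeR).

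The other large gains were mostly longer loops. The loop from the start of CHI3L2, a chitinase-like secreted protein whose promoter is printed above, spanned 550 kb (loop1965) and gave 26.1, 27.5, 26.3 and 27.3 at 0 h and 43.1, 46.7, 72.2 and 66.4 at 6 h. Its log2 fold change was 1.05 ± 0.18 SE (adjusted p 1.1e-05 by edgeR), and it was 0.74 within replicates 1 and 2 and 1.36 within replicates 3 and 4. Another 4 of the largest gains had log2 fold changes of 1.02 to 1.1 and lengths of 300 to 560 kb. They lay over ALDH1L2 and SLC41A2 on chromosome 12, between anchors close to PSMD7 and GLG1 on chromosome 16, and over TET3 on chromosome 2. On chromosome 6 the remaining loop had an anchor 93 kb from the ARID1B start. TET3 encodes a dioxygenase of 5-methylcytosine and ARID1B a subunit of a chromatin remodeler. The loop over TET3 (loop3803) lost its call without 6 h replicate 2 (adjusted p 0.064) and in DESeq2 without independent filtering (0.064), and has no adjusted p with it.

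The loss with the smallest p joined the start of GALP, galanin-like peptide, with an anchor 41 kb from the start of ZNF787, a zinc finger gene on chromosome 19 (loop31168, chr19:56070001-56080000 and chr19:56170001-56180000). It gave 106, 95.9, 115 and 115 at 0 h and 51, 40.2, 45.3 and 55.5 at 6 h. Every 6 h library was far below every 0 h library, and the loop fell by 1.17 on the log2 scale (SE 0.13, edgeR adjusted p 2.6e-11). A second loss on chromosome 19, an 80 kb loop within a cluster of zinc finger genes between ZNF429 and ZNF100 (loop30811), gave 81.8, 62.7, 108 and 108 at 0 h and 37.3, 33.6, 39.6 and 50.7 at 6 h. It fell by 1.14 (SE 0.15, edgeR adjusted p 3.2e-09).

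The loop over TRPV5, TRPV6 and KEL on chromosome 7 (loop16945, chr7:142870001-142880000 and chr7:143000001-143010000) was among the best counted of these losses. TRPV5 and TRPV6 are calcium channels, and KEL encodes the Kell blood group protein of the erythroid surface. Counts were 202, 197, 228 and 217 at 0 h and 107, 112, 133 and 113 at 6 h, and the loop fell by 0.86 (SE 0.10, edgeR adjusted p 6e-11). The 130 kb loop over CTSL, the lysosomal protease cathepsin L (loop19450), gave 97, 104, 94.1 and 88.7 at 0 h and 50, 44.9, 32.5 and 55.5 at 6 h. It fell by 1.06 (SE 0.14, edgeR adjusted p 3.2e-09).

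The largest loss in log2 units among called loops with a mean count of at least 20 lay on chromosome 17 (loop29702). The loop spanned MAP3K14, the kinase that starts the noncanonical NF-kB pathway, together with FMNL1 and PLEKHM1. It gave 36.9, 31.3, 30.1 and 40.9 at 0 h and 12.7, 12.1, 15.6 and 15.7 at 6 h, and fell by 1.34 (SE 0.23, edgeR adjusted p 1.5e-05). The other 4 of the 8 largest losses had log2 fold changes of -1.06 to -1.13. They lay over HEPHL1 and over FEZ1 on chromosome 11, over JMY on chromosome 5 and at the start of SYT10 on chromosome 12. All 8 kept an adjusted p under 0.05 in DESeq2 without independent filtering, with the length correction and without any single library. With that filtering the loop over MAP3K14 had no adjusted p and the other 7 kept their calls.

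**Figure D3:**
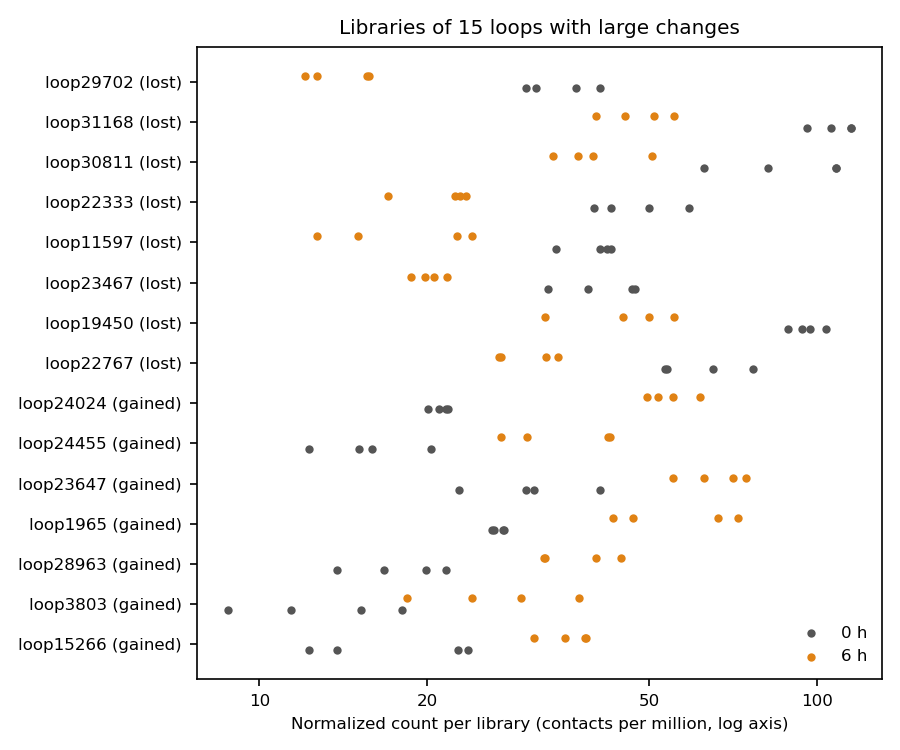
Points are the normalized counts (contacts per 1000000, log axis) of the 4 libraries at 0 h (grey) and the 4 at 6 h (orange) for 7 gained and 8 lost loops. These were chosen by size of change among called loops with a mean count of at least 20 whose libraries do not overlap. The gained loop near PHLDA1 (loop24024) lay between 20.1 and 21.8 at 0 h and between 49.5 and 61.8 at 6 h, and the lost loop at GALP (loop31168) between 95.9 and 115 and between 40.2 and 55.5.

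At erythroid genes all 10 tested loops with a listed start in an anchor had a log2 fold change below 0, with a median of -0.32 against 0.01 over all tested loops, and 2 were lost. They belonged to 8 of the 26 genes of the list, and their median length was 110 kb. In all tested loops of 100 to 200 kb the median log2 fold change was -0.05 and 6.58% were lost. The loop between the starts of GYPE and GYPB, red cell glycophorins (loop10059), gave 99.2, 97.8, 100 and 93.2 at 0 h and 67.7, 63.5, 72.2 and 73.6 at 6 h. It fell by 0.51 (SE 0.13, edgeR adjusted p 0.0057, 0.039 in DESeq2 and 0.065 without its independent filtering). GYPE and GYPB are close copies of each other, 239 of 244 bases being identical between a GYPB promoter and the GYPE promoter printed above, so reads between them may be placed in the wrong copy or discarded. The loop from the start of EPOR, the erythropoietin receptor (loop30687), gave 125, 103, 124 and 127 at 0 h and 86.3, 87.8, 80.7 and 96.5 at 6 h. It fell by 0.44 (SE 0.12, edgeR adjusted p 0.0087, 0.078 with the length correction, 0.037 in DESeq2 and 0.06 without its independent filtering). The times did not overlap in either loop. Loops at the alpha globin genes HBA1 and HBA2 (loop28358) and at the fetal globin gene HBG2 (loop21321) both had a log2 fold change of -0.30 and did not pass (edgeR adjusted p 0.075 and 0.086). The loop at KLF1, an erythroid transcription factor (loop30700), had -0.26 (edgeR adjusted p 0.14).

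When a gene start within 10 kb of an anchor also counted, 25 erythroid loops were found, of which 6 were lost and 1 gained (28% called). Of all tested loops 6.41% were called and 4.07% were lost. Losses made up 14% of tested loops of up to 100 kb and 6.58% of those of 100 to 200 kb. Loops described from such wider assignments, here and below, were chosen after their values were seen. Over all lists 30 loops were called only under these wider assignments: 8 kept an adjusted p under 0.05 without any single library, 13 with the length correction, and 8 of the 26 with a value in DESeq2. Of those named, the loops at JUND, CD83 and the ITGA1 region kept their calls without any single library. Those at TAL1, LMO2, ERG, RUNX1, GFI1B, IER3, NFKBIA and NFKBIE lost their calls with the length correction (adjusted p 0.054 to 0.26). A loop beside GYPC, the gene of another red cell glycophorin (loop4060, 130 kb), gave 48.5, 39.9, 59 and 51.2 at 0 h and 40.2, 21.5, 29.7 and 33.8 at 6 h, with a slight overlap. It fell by 0.65 (SE 0.17, edgeR adjusted p 0.011), a call lost without 6 h replicate 2 and in DESeq2 (adjusted p 0.063). A loop beside TAL1, an erythroid and stem cell transcription factor, was also lost (loop557, -0.32). The added gain was a 630 kb loop beside LMO2, a partner of TAL1 (loop21672, 0.78 ± 0.25, edgeR adjusted p 0.039).

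At megakaryocyte genes 0 of 15 loops changed by edgeR (nor by DESeq2, whose calls all lay among those of edgeR), where 6.41% of all tested loops did. An unadjusted p under 0.05 was found in 3 of them, against 20.3% of all tested loops, and the median log2 fold change was 0.04. The loop at ITGB3, the platelet integrin beta 3 (loop29727), gave 188, 158, 157 and 175 at 0 h and 138, 113, 178 and 141 at 6 h, with overlapping times (log2 fold change -0.28 ± 0.10 SE, adjusted p 0.084 by edgeR). Loops at RUNX1, MEIS1 and THBS1 had log2 fold changes of 0.04, 0.14 and 0.02. Where any part of a gene could lie over an anchor, 59 loops were found, with 3 gained and 2 lost. One of the 3 joined the region of ITGA1 and ITGA2, collagen-binding integrins (loop11295, 150 kb, log2 fold change 0.78 ± 0.16 SE, adjusted p 0.0004 by edgeR). The other gains lay at ERG, a megakaryocytic transcription factor (loop32231, 0.67 ± 0.18, edgeR adjusted p 0.012, and loop32232, 0.59 ± 0.20, adjusted p 0.049). The 2 losses lay at RUNX1 (loop32182, -0.42 ± 0.12, edgeR adjusted p 0.016) and GFI1B (loop19825, -0.38 ± 0.11, edgeR adjusted p 0.013). The call of loop32232 was lost when any 1 of the 8 libraries was left out. None of these loops at ERG, RUNX1 and GFI1B passed in DESeq2 (adjusted p 0.059 to 0.14).

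At genes of cell division and MYC function 7 of 41 loops were lost (17.1%) and 0 gained, and the median log2 fold change was -0.07. Of all tested loops 4.07% were lost, and of those of 200 to 400 kb, the class of the list's median length of 280 kb, 2%. The share was 6.58% for 100 to 200 kb, the class of lost loops at CCND3 (110 kb) and MYB (120 kb). For 400 to 800 kb, the class of a lost loop at BTG1 (430 kb), it was 0.607%. Lost loops shared anchors at BTG1 and at CCND3, so they were not all separate loci. A 110 kb loop between listed starts of CCND3, cyclin D3 of the G1 phase (loop13700), gave 236, 200, 245 and 249 at 0 h and 177, 178, 160 and 146 at 6 h. It fell by 0.48 (SE 0.10, edgeR adjusted p 0.0003). From the start of BTG1, an inhibitor of proliferation, 3 of 6 tested loops were lost, with log2 fold changes of -0.94, -0.92 and -0.84. The strongest of them (loop24271) gave 42.7, 33.2, 52.7 and 36.4 at 0 h and 16.7, 22.4, 22.6 and 24.1 at 6 h (SE 0.20, edgeR adjusted p 0.00069). BTG1 acts against division, while CCND3 promotes it. The loop at MYB, a transcription factor of blood progenitors (loop14993), had 68.8, 63.6, 69 and 46.6 at 0 h and 49, 46.7, 41 and 24.1 at 6 h, so the times overlapped. It fell by 0.61 (SE 0.16, edgeR adjusted p 0.0079), a call lost without 0 h replicate 1 or 6 h replicate 4 and in DESeq2 (adjusted p 0.073). The remaining lost loops lay at CDK6 (loop16408, -0.52) and CCND3 (loop13694, -0.35), and none of the loops at MYC itself passed.

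Immediate early and AP-1 genes showed 1 gained loop among 19 and a median log2 fold change of -0.02. This share of 5.26% called is near the 6.41% of all tested loops. The gain ended at the start of EGR3, a zinc finger factor induced early by growth signals (loop17265, 60 kb, the other anchor at BIN3 and CCAR2). It gave 49.2, 46.5, 50.2 and 46.6 at 0 h and 78.4, 69.2, 77.8 and 70 at 6 h (log2 fold change 0.61 ± 0.14 SE, adjusted p 0.0025 by edgeR). The 4 loops at JUN had log2 fold changes of 0.08 to 0.22 and did not pass. With gene starts within 10 kb of an anchor, 36 loops of this list gave 3 gains and 2 losses. The added gains lay beside ATF3 (loop2867, 0.43) and IER3 (loop13544, 0.42), and the losses beside JUND (loop30780, -0.51) and FOSB (loop31022, -0.45), all 4 of them AP-1 or stress-response genes. The ATF3 and IER3 calls were each lost when any 1 of 5 libraries was left out and in DESeq2 (adjusted p 0.089 and 0.17). The FOSB loop had overlapping times, and its call was lost without 0 h replicate 1 or 6 h replicate 2 and in DESeq2 (0.22).

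Genes of protein kinase C and MAP kinase feedback had 1 gained loop of 19, and 16 of the 19 lay above 0, with a median of 0.18 against 0.01 over all tested loops. The called share, 5.26%, is near the 6.41% of all tested loops. The gain ended at SPRY2, a feedback inhibitor of receptor signalling (loop25756), and gave 6.52, 10.4, 3.76 and 4.55 at 0 h and 14.7, 12.1, 14.2 and 19.3 at 6 h. Its log2 fold change was 1.17 ± 0.33 SE (adjusted p 0.018 by edgeR), and the call was lost without 0 h replicate 1, 3 or 4, without 6 h replicate 4 and in DESeq2 without independent filtering (adjusted p 0.11; none with it).

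None (0) of 22 loops at NF-kB and cytokine genes changed by edgeR, while 7 had an unadjusted p under 0.05. Of all tested loops 6.41% were called and 20.3% had such a p. The nearest to the threshold, at TNFAIP3, a brake on NF-kB signalling (loop15046), gave 157, 151, 159 and 161 at 0 h and 130, 134, 134 and 118 at 6 h (log2 fold change -0.28 ± 0.10 SE, adjusted p 0.084 by edgeR). Within 10 kb of gene starts, 46 loops gave 2 gains beside CD83 and 2 losses, beside NFKBIA (loop26634, -0.50) and NFKBIE (loop13740, -0.39), which encode inhibitors of NF-kB.

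At monocyte genes 3 of 16 listed loops were lost, which are 2 distinct pairs because the loop from SPI1 to SLC39A13 is listed again with its anchors swapped. This is 18.8% of the listed loops with that pair counted again, or 2 of 15 distinct pairs, against 4.07% lost among all tested loops. Losses made up 6.58% of tested loops of 100 to 200 kb (the list's median length is 145 kb). They made up 14% of those of up to 100 kb, the class of the 30 kb loop from SPI1. SPI1 encodes PU.1, and this loop (loop21810) gave 249, 214, 250 and 207 at 0 h and 185, 156, 224 and 186 at 6 h, with overlap, and fell by 0.31 (SE 0.10, edgeR adjusted p 0.028). The call was lost with the length correction (adjusted p 0.4), in DESeq2 (0.093) and without 0 h replicate 1 or 3 or 6 h replicate 1 or 2. The other loss, at S100A9 (loop2134), fell by 0.40 (SE 0.12, edgeR adjusted p 0.029), a call lost without 0 h replicate 1 or 6 h replicate 2 or 3, with the length correction (adjusted p 0.077) and in DESeq2 (0.13). Among genes of the loop machinery 1 of 12 loops was lost (8.33%, a single loop, against 4.07% of all tested loops), at LDB1, which bridges enhancers and promoters (loop20875). It gave 127, 119, 137 and 132 at 0 h and 74.5, 76.6, 100 and 85.7 at 6 h, and fell by 0.62 (SE 0.12, edgeR adjusted p 0.00011).

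**Figure D4:**
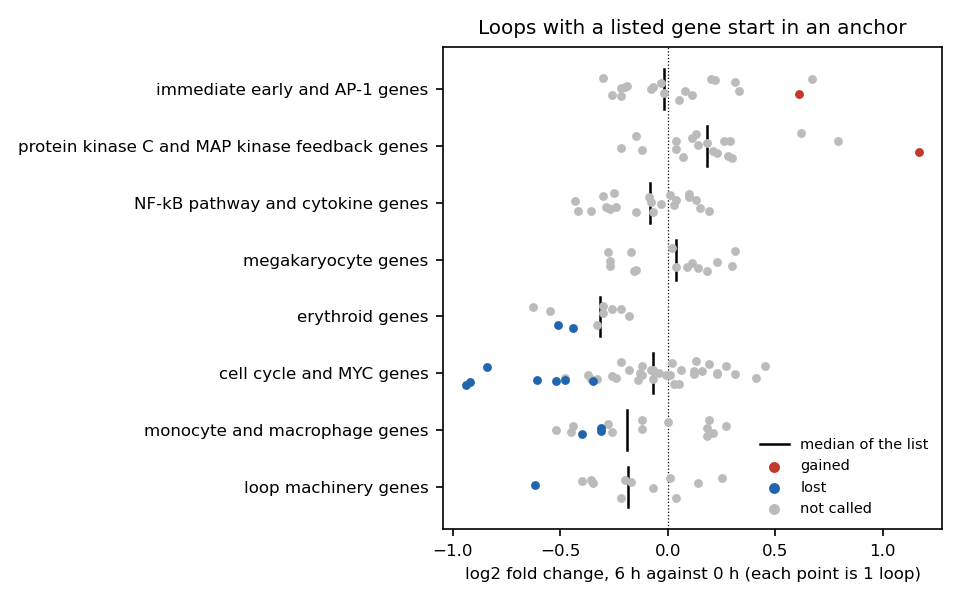
Each point is a tested loop with a listed gene start in an anchor, placed by its log2 fold change of 6 h against 0 h and set apart by gene list (vertical spread is only for display). Black lines are list medians, which range from -0.32 at erythroid genes to 0.18 at protein kinase C and MAP kinase feedback genes.

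Called loops were mostly scattered. When called loops with anchors within 20 kb were joined, they formed 1217 regions, of which 997 held a single loop and 220 held 2 or more. Of the latter, 107 held only losses, 51 only gains and 62 both. Among 192 pairs of called loops that share an anchor, 138 (71.9%) had the same direction. Because only 36.5% of called loops were gained, many pairs would share a direction through the excess of losses alone. The share that this balance would give was not computed.

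Among the 3 anchors with 4 called loops, only the anchor at the start of CITED2 had losses alone among its calls. CITED2 is a partner of the coactivators CBP and p300 in blood stem cells. Of the 7 tested loops at this anchor 4 were lost, spanning 150, 270, 450 and 620 kb, with log2 fold changes of -0.48, -0.61, -0.65 and -0.68. Those of 390 and 510 kb had 0.09 and -0.10. Among all tested loops 4.07% were lost, and the 3 anchors were chosen for their number of called loops. The 620 kb loop (loop15078) gave 43.5, 47.5, 50.2 and 52.3 at 0 h and 31.4, 29.9, 32.5 and 25.3 at 6 h (SE 0.17, edgeR adjusted p 0.0068). The 270 kb loop (loop15074) gave 78.2, 76.9, 72.8 and 63.7 at 0 h and 47.1, 43, 39.6 and 62.7 at 6 h (SE 0.15, edgeR adjusted p 0.003). The times did not overlap in either. The 150 kb call was lost without 0 h replicate 1 or 4 or 6 h replicate 2 and with the length correction (adjusted p 0.068), and the 450 kb call without 0 h replicate 1 or 6 h replicate 4. In DESeq2 the 270 and 620 kb loops passed (adjusted p 0.036 and 0.037), though not without its independent filtering (0.059 and 0.062), and the 150 and 450 kb loops did not (0.15 and 0.12).

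An anchor at chr7:143210001-143220000, beside the taste receptor gene TAS2R40, changed in both directions. Its loops of 610 and 710 kb were gained (log2 fold change 0.78 ± 0.17 and 0.84 ± 0.24, SE), and its loops of 200 and 340 kb were lost (-0.41 ± 0.10 and -0.70 ± 0.14, SE). The 340 kb loop (loop16946) gave 74.6, 80.7, 90.3 and 86.4 at 0 h and 50, 56.1, 42.5 and 50.7 at 6 h (edgeR adjusted p 0.00025). The 710 kb call was lost without 0 h replicate 1 or 3 or 6 h replicate 2, with the length correction (adjusted p 0.065) and in DESeq2 (0.073), and the 200 kb call without 6 h replicate 1. An anchor 7 kb from the start of AVPR1B, a vasopressin receptor gene on chromosome 1, had a lost loop of 80 kb to the start of CTSE, an aspartic protease (loop2775, -0.51 ± 0.10, edgeR adjusted p 0.00026). Its gained loops of 120, 190 and 440 kb (loop2774, loop2772 and loop2768) had 0.32 ± 0.10, 0.47 ± 0.13 and 0.76 ± 0.22, and the first pair did not pass in DESeq2 (adjusted p 0.079 and 0.077). The 440 kb loop had no adjusted p there, and did not pass without its independent filtering (0.18) or with the length correction (0.051). The 120 kb call was lost without any 1 of 0 h replicates 1, 2 and 3 and 6 h replicates 1, 3 and 4, the 190 kb call without 0 h replicate 3 or 6 h replicate 2, and the 440 kb call without 0 h replicate 1 or 6 h replicate 1 or 2.

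**Figure D5:**
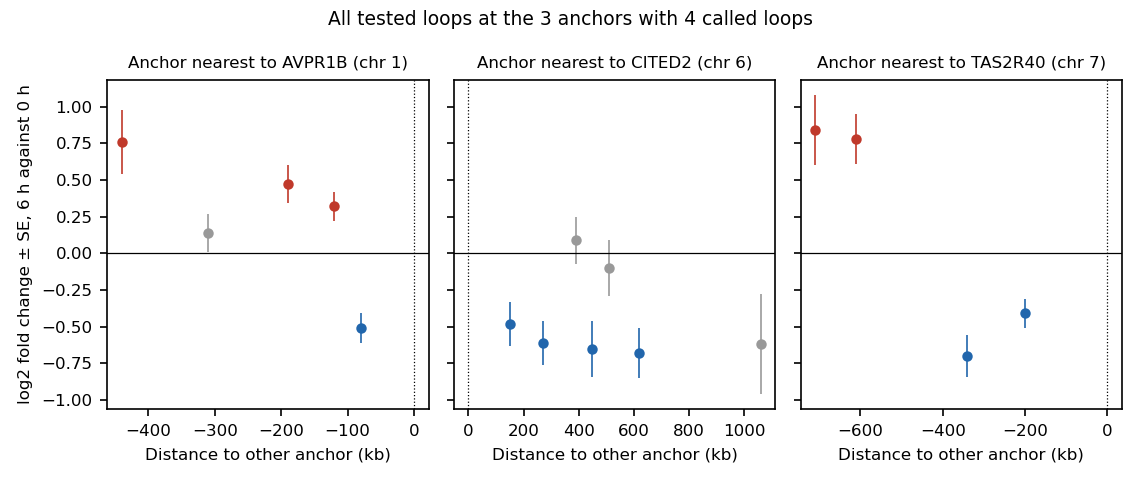
Points give the log2 fold change ± SE (edgeR) of every tested loop at the 3 anchors with 4 called loops, placed by the distance in kb from that anchor to the other end (gained red, lost blue, not called grey). At CITED2 the lost loops lie at 150, 270, 450 and 620 kb, and at the chromosome 7 anchor the 2 longer loops rose while the 2 shorter ones fell.

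The region with the most calls held 11 changed loops of 42 tested at chr6:13900001-16200000, around CD83, an activation marker of immune cells, and JARID2, a subunit of the Polycomb complex PRC2. Among all tested loops 6.41% were called. The 5 regions described here were chosen for their number of calls, so high called shares in them follow from the choice. In the region around CD83 and JARID2 the median length was 880 kb for the 7 gains and 175 kb for the 4 losses. A 1500 kb gained loop with an anchor 2 kb from the CD83 start (loop13327) gave 7.97, 4.75, 11.3 and 14.8 at 0 h and 25.5, 23.4, 19.8 and 26.5 at 6 h (log2 fold change 1.36 ± 0.27 SE, adjusted p 0.0003 by edgeR). A 1720 kb loop (loop13324) gave 3.62, 7.59, 6.27 and 2.27 at 0 h and 15.7, 13.1, 21.2 and 19.3 at 6 h (log2 fold change 1.77 ± 0.35, edgeR adjusted p 0.00027). In contrast, a 150 kb loop from the JARID2 start (loop13348) gave 70.3, 62.7, 77.8 and 64.8 at 0 h and 41.2, 40.2, 42.5 and 54.3 at 6 h, and fell by 0.63 (SE 0.15, edgeR adjusted p 0.0026).

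The second region, at chr7:142500001-143220000, held 5 gained and 3 lost loops of 15 tested and contains the loop over KEL and the TAS2R40 anchor described above. There a 380 kb loop over EPHB6 and KEL (loop16939) gave 45.6, 50.3, 50.2 and 47.8 at 0 h and 72.6, 68.2, 99.1 and 100 at 6 h (log2 fold change 0.78 ± 0.14 SE, adjusted p 4.7e-05 by edgeR). It shares an anchor with the lost loop over KEL, which is nested within it.

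The third region lay around EGR2, an immediate early factor, JMJD1C, a demethylase-like regulator, and REEP3 at chr10:62730001-63790000, with 5 gained and 2 lost of 17 loops. The strongest, an 80 kb loop beside REEP3 (loop20468), gave 92.7, 107, 107 and 89.8 at 0 h and 173, 130, 168 and 165 at 6 h (log2 fold change 0.68 ± 0.11 SE, adjusted p 4.8e-06 by edgeR). A 600 kb loop over JMJD1C and REEP3 (loop20461) rose from 26.6 to 36.4 at 0 h to 43.4 to 66.7 at 6 h (log2 fold change 0.85 ± 0.16, edgeR adjusted p 0.0002). The tested loop with the EGR2 start in an anchor (loop20451) was not called (log2 fold change 0.33 ± 0.17 SE, edgeR adjusted p 0.26).

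The fourth region surrounded TRIB1, a pseudokinase that targets C/EBP alpha for degradation, at chr8:124470001-125700000, with 4 gained and 2 lost of 31 loops. A 60 kb loop 2 kb from the TRIB1 start (loop18661) gave 86.2, 61.7, 97.8 and 69.4 at 0 h and 114, 111, 142 and 90.5 at 6 h, with overlap (log2 fold change 0.53 ± 0.12, edgeR adjusted p 0.0027). A 320 kb loop on the other side (loop18646) fell by 0.55 (SE 0.16, edgeR adjusted p 0.017), a call lost without 0 h replicate 1 or 6 h replicate 4 and in DESeq2 (0.1). The fifth region, at chr7:129220001-130020000, held 4 lost and 1 gained of 14 loops around AHCYL2, NRF1, a factor of mitochondrial genes, and UBE2H. A 160 kb loop over NRF1 (loop16774) gave 189, 214, 232 and 214 at 0 h and 142, 109, 181 and 154 at 6 h, and fell by 0.55 (SE 0.10, edgeR adjusted p 7.1e-05).

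Besides CITED2 and BTG1, genes with 3 called loops were chosen after their values were seen. Among all tested loops 6.41% were called and 4.07% were lost. At ARHGAP5 all 3 tested loops were lost, with log2 fold changes of -0.83 to -1.32. At GNAI3, an inhibitory G protein subunit, all 3 were lost, at -0.33 to -0.44, and at AHCYL1 3 of 5 were lost, at -0.36 to -0.44, 1 of them joining GNAI3 with AHCYL1. SLC29A3, CLEC3B and AHSG each had 2 gained and 1 lost loop, and AHCYL2 had 1 gained and 2 lost.

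The authors' deposited table gives each loop a class over the whole time course. Of the 565 gained loops it classes 157 as gained, 2 as lost and 406 as static. Of the 981 lost loops it classes 224 as lost, 2 as gained and 755 as static. In the authors' deposited table gained loops with a value for 6 h had a median of 0.29 on the log2 scale, where the fit here gave 0.70 over the same loops. For lost loops the authors' deposited table gave -0.27 and the fit here -0.48. The header does not say how the deposited values were made, so the smaller size is given as a description.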

How the data were processed

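In situ Hi-C contacts were counted in K562 cells at 0, 6 and 72 h of 25 nM PMA. Per the file headers, the deposited counts are raw contacts per loop and technical replicate, 30 columns, all used. Per the submitters' processing notes, Juicer 1.5.6 and DESeq2 were used on hg38. The loop caller is not given in the sources used here. The authors also deposited log2 fold changes and 1 adjusted p-value per loop. The latter was the same in both of its columns and was not used. Anchor positions start from 0 in the deposited table and from 1 here.

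Technical replicates were summed into 12 libraries. Columns of replicates 3 and 4 join 2 sequencing runs. Loops passed edgeR's filterByExpr (minimum count 10, total 15). The main test was edgeR 4.0.16 under R 4.3.3 (quasi-likelihood, TMM factors, Benjamini-Hochberg, threshold 0.05) in 1 model of 12 libraries, and the 72 h libraries share only the spread. SE is the log2 fold change over the root of F. Normalized counts are per 1000000 contacts in tested loops. Alternatives included DESeq2 1.42.0, scalings, filters, a batch term for replicates 3 and 4, the replicate number as a block, and a loess (span 0.3) length offset. Library shares were tested by exact permutation. Results for some items are not reported here. The count test was tried on simulated counts with known changes.

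Genes were placed by protein-coding starts of the RefSeq promoter table (22132 starts of 15812 genes), or either gene end for 4162 genes with none listed. Members and gene lists were chosen with earlier results of these data known. Loops were named by rule: the 8 largest gains and 8 largest losses among called loops with a mean count of at least 20 and no overlap of libraries, the 4 of smallest p each way, up to 4 called loops per list (or the loop of smallest p), up to 3 loops in each of the 5 regions with most calls, and anchors with 4 or more called loops. Same-numbered replicates did not pair the times (correlations of deviations 0.035, 0.124, 0.034 and 0.023).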

Additional observations from a re-analysis of the deposited data

Results flagged for a closer look

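In 178 groups of 4 libraries examined, 8 held a library apart from its group, where chance gives about 8.9. Among loops, 6 h replicate 3 had 17 at the HEPHL1 loop (loop22333) against 22.4 to 23.5 in the others. The 6 h replicate 2 had 130 at the REEP3 loop (loop20468) against 165 to 173. At the EPOR loop (loop30687), 0 h replicate 2 had 103 against 124 to 127. At the JARID2 loop (loop13348), 6 h replicate 4 had 54.3 against 40.2 to 42.5. At the 120 kb loop of the AVPR1B anchor (loop2774), 0 h replicate 4 had 181 against 149 to 152. Among shares of contacts, loops between gene starts held 5.08% in 6 h replicate 2 against 5.43 to 5.46%. Chromosome 9 held 3.35% in 0 h replicate 4 against 3.32%, and chromosome 11 held 6% in 0 h replicate 3 against 6.03%. In each of the 5 loops the library set apart lay on the same side of every library of the other time as the rest of its group.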

How the results depend on the processing

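Tested loops longer than 1600 kb had a median of 9.5 contacts per library against 80.6 in those of up to 100 kb, and the part of depth in the number of calls was not tested. Of 57 named loops, none changed direction under any alternative run. Calls lost were 12 in DESeq2 (of 49 with an adjusted p), 20 without its independent filtering, 7 with the length correction, 1 with replicates 3 and 4 summed, and up to 11 without a single library. Over all loops, DESeq2 gave 438 changed, 87 gained and 351 lost, and without independent filtering 340, 74 and 266. The length correction gave 1001 changed and 553 lost. At an adjusted p under 0.01, 545 changed, 149 gained and 396 lost, and at a fold of at least 1.5, 740 changed, 299 of them lost. Within replicates 1 and 2, 526 changed, 168 gained and 358 lost, and within replicates 3 and 4, 213 changed, 74 gained and 139 lost. Leaving out 1 library gave 709 to 1545 changed, 208 to 482 gained and 501 to 1063 lost, with fewer libraries in each fit. Other scalings, filters, sample choices and counting repeated pairs once stayed within 1.5 times. The replicate block gave 1938 changed, 716 gained and 1222 lost, including all 1546, and changed 1 named call, at ITGB3 (loop29727, adjusted p 0.039, against 0.082 with replicates 3 and 4 summed), but the numbers do not pair the times: 0 h replicate 3 correlated best with 6 h replicate 4 (0.044 against 0.034).

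Over all loops in place of tested loops, the share of contacts in loops of 800 to 1600 kb was higher at 6 h by 0.601 percentage points (0.321 in tested loops) and that of longer loops by 0.204 (0.0347). These alternatives add the thin, long loops put aside from the test. Counts of called loops at gene lists moved with the assignment. With starts within 10 kb of the anchor they were 5 at immediate early genes, 3 at protein kinase C genes, 4 at NF-kB genes, 3 at megakaryocyte genes, 7 at erythroid genes and 3 at loop machinery genes. With any part of the gene they were 4, 5, 3, 5, 6 and 2 in the same order. With either gene end, chosen after seeing the data, they were 3, 3, 1, 1, 2 and 0. With the length correction immediate early and protein kinase C genes had 2 each, erythroid genes 1 and monocyte genes 0. The cause of these moves beyond the construction of each alternative was not tested.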
